A study of Homo sapiens with 3 samples.

Results

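The outer end of chromosome 17, on its long arm, was taken as all peaks of the Spindlin1 and C11orf84 lists whose summit, the position of highest signal in a peak, lay at 76 Mb of chromosome 17 or beyond in the human genome build hg19. It held 3285 Spindlin1 peaks, 2.14% of 153468 in that list, and 3368 C11orf84 peaks, 1.9% of 177639, together 6653 of 331107. The stretch was selected on measured peak density, since it includes the 1 Mb of the genome with the most peaks, so its density is given as a description and is not tested. Its outermost peak ended at 81151718, which makes a stretch of 5.15 Mb. The C11orf84 peak nearest to the inner border lay inside it at chr17:76005922-76006136 (14 fragments at the summit) and the first Spindlin1 peak at chr17:76027650-76027826 (12 fragments). The last peaks outside were at chr17:75955634-75955891 for C11orf84 (21 fragments) and chr17:75955700-75955888 for Spindlin1 (16 fragments).

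Both lists come from U2OS, a human osteosarcoma cell line, grown without treatment. Chromatin was immunoprecipitated with an antibody against Spindlin1 in 1 library and against C11orf84 in another, and the DNA was sequenced (ChIP-seq). A library made without antibody, the Input, completes the 3 samples, and no file of it was used here. Each antibody has 1 library, so differences have no replicate check and none was tested. The 95% intervals given are exact binomial (Clopper-Pearson) or Poisson intervals that cover counting error only. Neighbouring peaks are not independent, so the intervals are likely too narrow.

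Spindlin1 is a reader of histone H3 tails that binds trimethylated lysine through Tudor-like domains and is known as a coactivator of Wnt target genes. C11orf84 is a Spindlin1-binding protein. Trimethylation of the fourth lysine of H3 marks gene starts, above all those in CpG-rich DNA. The outer part of the long arm of chromosome 17, band 17q25, is known as a gene-rich and G+C-rich stretch.

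The genes known from this band were taken from a list of 31 symbols, all 31 of which were found on chromosome 17 of the RefSeq table for GRCh38.p14. In that table the order towards the tip begins with TK1, which encodes thymidine kinase, BIRC5, which encodes the inhibitor of apoptosis survivin, and SOCS3, an inhibitor of cytokine signalling. TIMP2, an inhibitor of matrix metalloproteinases, LGALS3BP and RBFOX3, a splicing factor of neurons, follow. The genes of the lysosomal enzymes GAA and SGSH, RPTOR, which encodes a subunit of the growth kinase complex mTORC1, BAIAP2, BAHCC1 and ACTG1, the gene of gamma-actin, come next. A long run then holds HGS, the mitochondrial carrier gene SLC25A10, the glucagon receptor gene GCGR, P4HB, ARHGDIA, ALYREF, PCYT2, the deacylase gene SIRT7, MAFG, the proline synthesis gene PYCR1, NOTUM, which inactivates Wnt ligands, the small GTPase gene RAC3, DCXR and RFNG. FASN, the fatty acid synthase gene, CSNK1D, FOXK2 and TBCD lie farther out, and METRNL has 0 annotated coding genes beyond it. This table has another build than the peaks, so no peak was assigned to a gene and no share of peaks at gene starts is given.

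Peaks of both proteins filled a large part of this stretch. Spindlin1 intervals covered 1264 kb of it (24.5% of its bases) and C11orf84 intervals 1523 kb (29.6%). Bases in at least 1 list made up 34.3%. The 2 territories had 1021 kb in common, which is 80.8% of the Spindlin1 and 67.1% of the C11orf84 bases. Neighbouring Spindlin1 summits were a median of 906.5 bp apart (interquartile range 558 to 1590 bp), against 1902 bp in the rest of chromosomes 1 to 22 and X. For C11orf84 the median was 931 bp (584 to 1635.5 bp), against 1679 bp in the rest. The stretch held 29.2% of all Spindlin1 peaks and 26.6% of all C11orf84 peaks of chromosome 17.

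Density was uneven within the stretch and moved together in both lists. The 51 whole windows of 100 kb held between 11 and 108 Spindlin1 peaks (median 64) and between 15 and 110 C11orf84 peaks (median 67). Across these windows the peak numbers of both lists went together (Pearson's r 0.957, Spearman correlation 0.966), a description over neighbouring windows with 1 library each. At least 100 peaks of the lists together were found in 37 of the 51 windows (72.5%), against 578 of 19999 windows elsewhere that held a peak (2.89%). The median window elsewhere had 5.

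**Figure D1:**
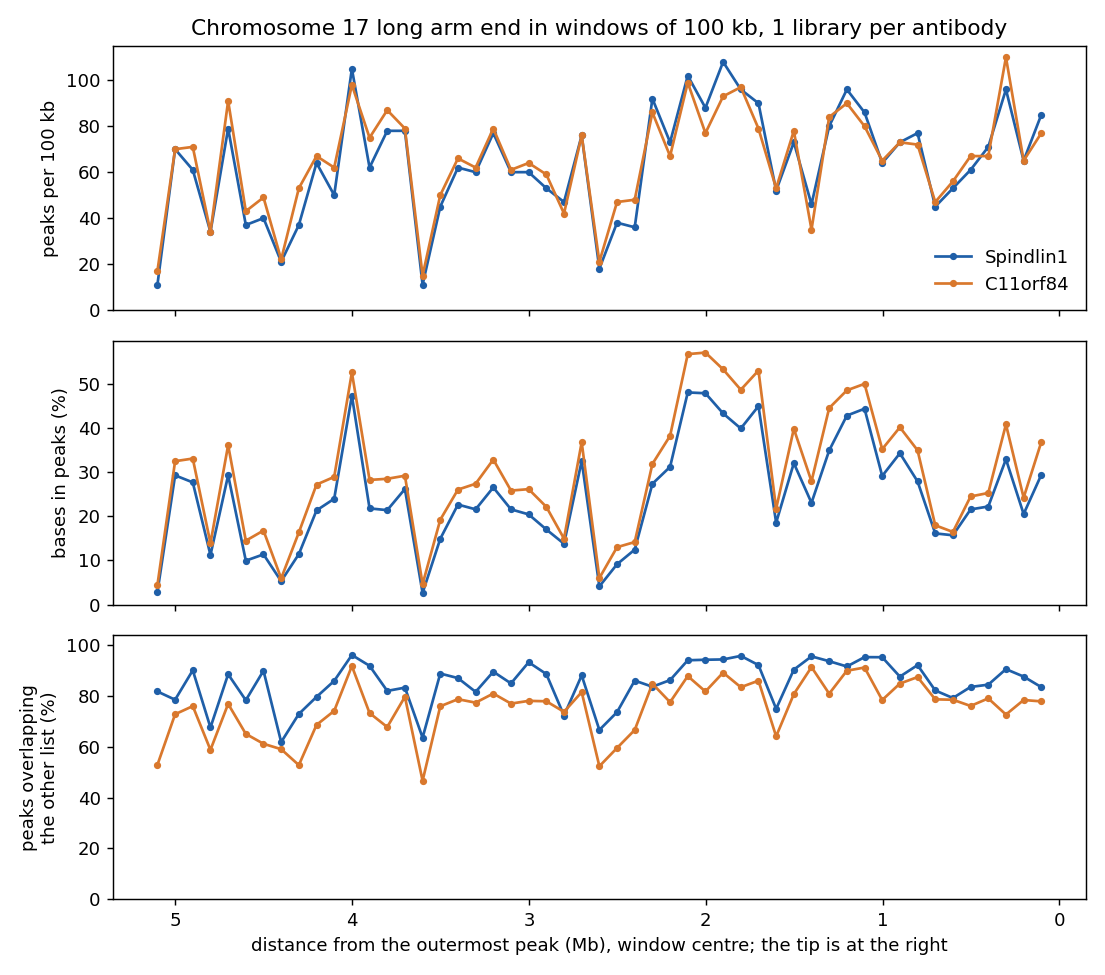
Peaks per 100 kb, bases in peaks (%) and peaks overlapping the other list (%) in the 51 whole windows, plotted against distance from the outermost peak in Mb, with Spindlin1 in blue and C11orf84 in orange. Both lists rise and fall together, from 11 and 15 peaks in the emptiest window to 108 and 110 in the fullest of each list, and C11orf84 covers more bases than Spindlin1 throughout.

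Fullest of all was the window from 80.8 to 80.9 Mb, where 96 peaks were of Spindlin1 and 110 of C11orf84. The 206 peaks there were exceeded in 5 windows elsewhere in the genome, the highest of which had 229. Next came 77.1 to 77.2 Mb (105 and 98 peaks), followed by 79 to 79.1 Mb (102 and 99) and 79.2 to 79.3 Mb (108 and 93) with equal sums. The emptiest windows were 77.5 to 77.6 Mb (11 Spindlin1 and 15 C11orf84 peaks), 76 to 76.1 Mb (11 and 17) and 78.5 to 78.6 Mb (18 and 21). Much of the window at 77.5 to 77.6 Mb lay in a single gap without calls, where it was not checked whether reads could map. All of the emptiest windows lay below 79 Mb, though the full window at 77.1 to 77.2 Mb lay among them. From 76 to 81 Mb the Spindlin1 peaks per Mb numbered 454, 628, 553, 831 and 691. For C11orf84 they numbered 517, 673, 571, 785 and 702. Peaks were thus most numerous at 79 to 81 Mb, without a steady rise towards the tip.

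Ranking by bases gave another order than ranking by numbers. The 5 windows from 79 to 79.5 Mb had 39.9% to 48.1% of their bases in Spindlin1 peaks and 48.7% to 57.1% in C11orf84 peaks, the highest C11orf84 value being that of 79.1 to 79.2 Mb with 77 peaks. The window at 80.8 to 80.9 Mb, first by numbers, had 32.9% and 40.8%. The window at 77.1 to 77.2 Mb had 47.3% and 52.6%.

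Part of the peaks of the stretch stood in long runs, as its selection by peak density would give. When intervals of either list at most 1 kb apart were joined, 846 runs were obtained, of which 662 held both proteins, 67 Spindlin1 alone and 117 C11orf84 alone. Runs of both proteins had a median length of 2015 bp. The 66 runs of at least 10 kb contained 1355 of the 3285 Spindlin1 and 1285 of the 3368 C11orf84 peaks. No such share is given for the rest of the genome, and single runs are named as a description. The longest run was chr17:77119772-77166690 (46919 bp, 59 Spindlin1 and 55 C11orf84 peaks), and the next, chr17:77073787-77114453 (40667 bp, 40 and 45 peaks), lay just before it. The other 3 of the 5 longest lay between 79 and 79.5 Mb: chr17:79072827-79111391 with 51 and 38 peaks, chr17:79151200-79188218 with 42 and 37, and chr17:79400048-79436913 with 39 and 35.

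**Figure D2:**
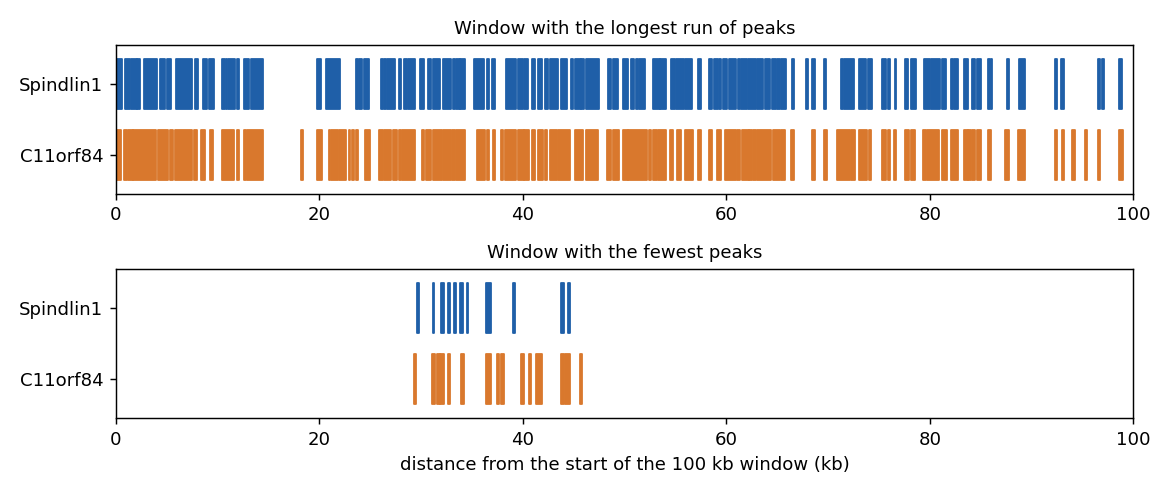
Intervals of both lists drawn to scale in the 100 kb window with the longest run (top) and in the one with the fewest peaks (bottom), with distance from the start of the window in kb. Bars are peak intervals, blue for Spindlin1 and orange for C11orf84. The top window holds 105 and 98 peaks and the bottom window 11 and 15, which lie in one narrow group.

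Long gaps without any peak were few, as the selection of the stretch by peak density would give. No count from elsewhere is given. Of 3481 gaps between intervals of the joined lists, 23 reached 10 kb, and the median gap was 389 bp. The longest was chr17:77545813-77639200 (93.4 kb), which takes up much of the emptiest window. The second, chr17:79708992-79759401 (50.4 kb), lay inside the densest 1 Mb of the genome. A gap is an absence of calls and does not measure absence of either protein. Whether the build has sequence there to which reads could map was not checked, as no genome of hg19 was used.

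Peaks of the stretch overlapped the other list more often than peaks in general, as its selection by peak density would give. Of the Spindlin1 members, 2872 (87.4%, 95% interval 86.2 to 88.5) touched a C11orf84 peak by 1 bp or more, against 69.7% of all Spindlin1 peaks on chromosomes 1 to 22 and X. Of the C11orf84 members, 2626 (78%, 76.5 to 79.4) touched a Spindlin1 peak, against 57.6% of all. The ends of the long arms of chromosomes 9 and 20, cut to the same length, had 85.2% (83.9 to 86.5) and 86.1% (84.5 to 87.6) for Spindlin1, and 72.0% (70.4 to 73.6) and 72.7% (70.7 to 74.6) for C11orf84. For Spindlin1 the intervals of both overlap that of chromosome 17, whereas for C11orf84 both lie below it.

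The size of this difference depended on what counted as shared. With at least 50% of both intervals in common, 54.3% of Spindlin1 and 52.9% of C11orf84 members were shared, against 47.5% and 41.1% of all peaks. With summits at most 200 bp apart the shares were 61.2% and 59.6%, against 55.1% and 47.5%. When both lists were reduced to peaks whose −log10 q reached 10, 49.6% (45.5 to 53.7) of Spindlin1 members and 31.8% (28.8 to 34.9) of C11orf84 members overlapped, and the values of all such peaks, 49.0% and 30.9%, lie within these intervals. Such strong peaks numbered 595 for Spindlin1 (18.1%, against 11.8% of all peaks) and 931 for C11orf84 (27.6%, against 15.7% of all). The end of chromosome 20 had more, 27.0% and 33.0%, and that of chromosome 9 had 18.5% and 22.8%.

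Summit depth, the number of fragments over the summit recovered from the deposited fold and p-value, had a median of 12 for Spindlin1 (interquartile range 11 to 15, highest 27) and 14 for C11orf84 (11 to 16, highest 29). In the rest of the genome the medians were 11 and 12. Few members were deep, and 97.1% of Spindlin1 and 94.9% of C11orf84 members had fewer than 20 fragments. The median shared Spindlin1 member had 13 fragments and the median unshared one 11, and for C11orf84 these were 14 and 12.

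Overlap was then compared at equal depth, using the peaks whose background was the lowest of their list (the floor). Equal depth does not match peak density, by which the stretch was selected. At 9 to 10 fragments, 80.7% (76.5 to 84.5) of 394 Spindlin1 members were shared, against 60.7% (60.1 to 61.4) in the rest of chromosomes 1 to 22 and X. At 13 to 14 fragments these were 94.0% (91.1 to 96.1) of 397 against 79.8% (79 to 80.6). For C11orf84 at 9 to 10 fragments 69.3% (63.5 to 74.7) of 274 members were shared against 42.4% (41.8 to 43.0), and at 13 to 14 fragments 89.7% (86.3 to 92.5) of 399 against 65.7% (64.9 to 66.5). At 17 to 19 fragments 93.8% (87.7 to 97.5) of 113 Spindlin1 members were shared, an interval that includes the value of the rest, 91.8%. C11orf84 at that depth had 91.7% (87.3 to 95) of 218 members, an interval above the value of the rest, 84.3%. At 20 or more fragments all 26 Spindlin1 (86.8 to 100) and all 56 C11orf84 members (93.6 to 100) at the floor were shared, intervals that include the values of the rest, 98.3% and 94.0%.

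Equally crowded places elsewhere had similar shares. In 23 other windows of 1 Mb with at least 500 peaks in each list, 88.5% (88.0 to 89.0) of 15103 Spindlin1 peaks and 79.5% (78.9 to 80.2) of 15249 C11orf84 peaks were shared. By window these ranged from 81.6% to 94.3% for Spindlin1 and from 69.3% to 91.2% for C11orf84. At the floor and 9 to 10 fragments those windows gave 81.4% (79.6 to 83.0) for Spindlin1 and 64.2% (61.7 to 66.5) for C11orf84. The interval of the chromosome 17 members at that depth overlaps theirs in both lists. At 13 to 14 fragments of C11orf84 the crowded windows had 85.0% (83.1 to 86.7), and their interval also overlaps that of the members.

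**Figure D3:**
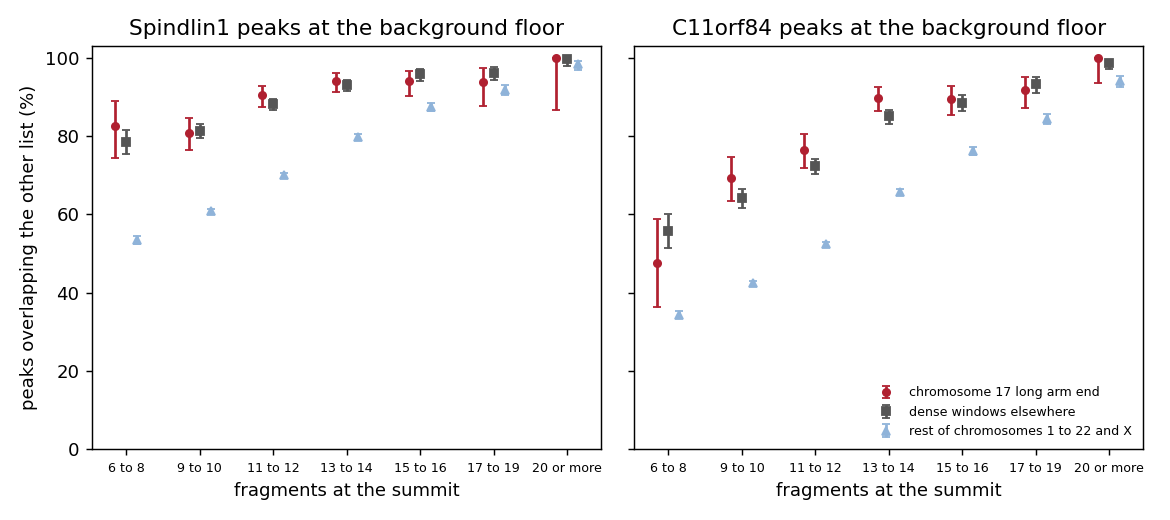
Share of peaks at the background floor that overlap the other list (%), by fragments at the summit, for Spindlin1 (left) and C11orf84 (right). Red circles are the chromosome 17 end, grey squares the 23 other crowded windows and light blue triangles the rest of chromosomes 1 to 22 and X, with exact 95% binomial intervals. At 9 to 10 fragments the red circles stand at 80.7% and 69.3%, and the triangles at 60.7% and 42.4%. The triangles are not matched to the stretch on peak density.

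Sharing varied along the stretch. For Spindlin1 it was 81.1% (77.1 to 84.6) at 76 to 77 Mb, 87.4% at 77 to 78 Mb, 84.3% at 78 to 79 Mb, 92.4% (90.4 to 94.1) at 79 to 80 Mb and 88.6% at 80 to 81 Mb. C11orf84 had 67.5% (63.3 to 71.5), 77.6%, 75.7%, 84.1% (81.3 to 86.6) and 80.5% in the same order. The lowest and the highest of these have intervals that do not overlap in either list. Without 79 to 80 Mb the whole stretch had 85.7% and 76.1%. By 100 kb window, sharing ran from 61.9% to 96.2% for Spindlin1 and from 46.7% to 91.8% for C11orf84, and its Spearman correlation with peak number was 0.645 and 0.644, a description over 51 windows in which number and overlap are not independent measures.

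Peak numbers and covered bases disagreed on which protein was ahead at 79 to 80 Mb. Spindlin1 had 831 peaks there and C11orf84 785, a ratio of 0.945 C11orf84 peaks per Spindlin1 peak, whereas it was 1.14 at 76 to 77 Mb, 1.07 at 77 to 78 Mb, 1.03 at 78 to 79 Mb and 1.02 at 80 to 81 Mb. In bases C11orf84 led in each, with 451.5 against 375.7 kb at 79 to 80 Mb, and it covered more bases than Spindlin1 in all 20 windows of 100 kb from 79 to 81 Mb and all 30 from 76 to 79 Mb. Spindlin1 had the larger number of peaks in 9 of the 20 and 4 of the 30. On chromosomes 1 to 22 and X, C11orf84 had 177557 peaks of median width 248 bp, and Spindlin1 153378 of 229 bp. Covered bases elsewhere are not given, so the lead of C11orf84 in bases is not shown to be particular to the stretch. Among peaks whose −log10 q reached 10 the order at 79 to 80 Mb was the reverse of that by all peaks, with 146 Spindlin1 and 229 C11orf84 peaks. More Spindlin1 than C11orf84 peaks were also found in 8 of the 23 other crowded windows, and in 602 of the 2708 windows of 1 Mb with peaks of both lists.

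Single intervals that span several peaks of the other list were more frequent here than among all peaks. The selection of the stretch by peak density would give this. Of the C11orf84 members, 428 (12.7%, 11.6 to 13.9) overlapped at least 2 Spindlin1 peaks, against 5.56% of all C11orf84 peaks. Of the Spindlin1 members, 267 (8.13%, 7.22 to 9.12) overlapped at least 2 C11orf84 peaks, against 4.19% of all. At 79 to 80 Mb these shares reached 22% (19.2 to 25.1) for C11orf84 and 13% (10.8 to 15.5) for Spindlin1, and at 76 to 77 Mb they were 6.96% and 4.19%. The ends of chromosomes 9 and 20 had 12.3% (11.2 to 13.5) and 14.5% (13 to 16.1) for C11orf84, intervals that overlap that of chromosome 17. For Spindlin1 they had 8.93% (7.92 to 10.0) and 9.18% (7.93 to 10.6), intervals that also overlap that of chromosome 17.

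**Figure D4:**
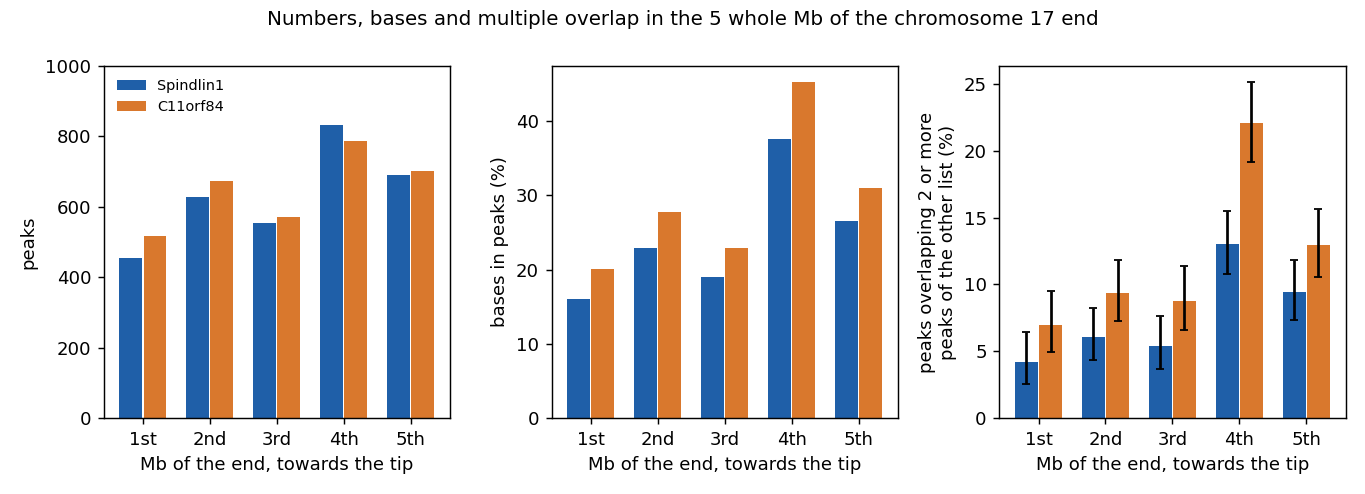
Peaks (left), bases in peaks in % (middle) and peaks that overlap at least 2 peaks of the other list in % with exact 95% binomial intervals (right), in the 5 whole Mb from 76 Mb towards the tip, with Spindlin1 in blue and C11orf84 in orange. In the 4th Mb, at 79 to 80 Mb, Spindlin1 has more peaks (831 against 785) while C11orf84 covers more bases (45.2% against 37.6%).

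Members were wider than peaks in general. The middle Spindlin1 member was 286 bp wide (quartiles 202 and 446 bp), against 229 bp in the rest. The middle C11orf84 member was 319 bp wide (quartiles 220 and 538 bp), against 247 bp. A width of at least 1000 bp was reached by 133 Spindlin1 members (4.05%, 3.4 to 4.78), against 1.48% of all peaks, and by 240 C11orf84 members (7.13%, 6.28 to 8.05), against 2.42% of all. In this the chromosome 17 end stood below the end of chromosome 20, which had 6.95% (5.86 to 8.18) and 10.7% (9.41 to 12.2). The end of chromosome 9 had 6.16% (5.33 to 7.09) for Spindlin1, also above chromosome 17, and 8.11% (7.19 to 9.1) for C11orf84, whose interval overlaps that of chromosome 17. The widest C11orf84 member, chr17:76245138-76249328 (4191 bp, 25 fragments, 95% Poisson interval 16.2 to 36.9), spanned 5 Spindlin1 peaks. The next, chr17:79054678-79058364 (3687 bp), spanned 6, and chr17:79768817-79772438 (3622 bp) spanned 5. The widest Spindlin1 members were chr17:76120101-76123118 (3018 bp, over 3 C11orf84 peaks), chr17:77914125-77916552 (2428 bp, over 2) and chr17:79136577-79138973 (2397 bp, over 2).

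The 5 named summits of highest fold in each list lay in several parts of the stretch, its densest Mb included. Fold is the authors' ratio of the summit to its background. The background was the floor of the list for 53.5% of Spindlin1 and 50.7% of C11orf84 members. The top Spindlin1 members were chr17:76486760-76487153 and chr17:78878700-78878945, both with a fold of 12.3 at 23 fragments (14.6 to 34.5). The C11orf84 peaks there had 16 fragments (9.15 to 26.0) and 19 fragments (11.4 to 29.7). Next were chr17:79609557-79609900 (fold 12, 24 fragments), chr17:79428396-79430341 (fold 11.8, 22 fragments) and chr17:80583449-80583642 (fold 11.8, 22 fragments), where C11orf84 had 22, 21 and 16 fragments. Within 0.1%, 5 members had the fold of the last, of which 2 are named. Each of these 5 Spindlin1 peaks overlapped a C11orf84 peak.

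The top C11orf84 member was chr17:80367915-80368570 with a fold of 13.1 at 27 fragments (17.8 to 39.3), where Spindlin1 had 12 fragments (6.2 to 21.0). It was followed by chr17:78441952-78442428 (fold 12.8, 25 fragments, 17 for Spindlin1). Then came chr17:77482831-77483099, chr17:78175299-78175906 and chr17:79807431-79807712, all with a fold of 12.3 at 24 fragments, where Spindlin1 had 15, 14 and 18. Within 0.1%, 4 members had this fold, of which 3 are named. In each of these 5 regions C11orf84 was the deeper, and in the 5 top Spindlin1 regions Spindlin1 was the deeper, as choosing each set by its own fold would give. The Poisson intervals of both proteins overlap in every one of the 10 regions.

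None of these summits led the genome. The highest Spindlin1 fold of the stretch ranked 170 in its list and the highest C11orf84 fold 144. Of the 1000 peaks of highest fold, 37 Spindlin1 peaks (3.7%) and 27 C11orf84 peaks (2.7%) lay in the stretch, which holds 2.14% and 1.9% of the lists.

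Summits of shared members were somewhat farther from the other list here than elsewhere. The median distance to the nearest summit of the other list was 77 bp for shared Spindlin1 members, against 58 bp for shared peaks in the rest, and 63 bp against 54 bp for C11orf84. Shared members were also wider, with medians of 318 against 263 bp for Spindlin1 and 373.5 against 310 bp for C11orf84. The part of width and peak density in these distances was not tested. Spindlin1 and C11orf84 peaks that overlapped and were each other's nearest by summit formed 2387 pairs, 72.7% of Spindlin1 and 70.9% of C11orf84 members, with a median summit distance of 53 bp (interquartile range 20 to 143 bp). C11orf84 had more fragments in 1362 pairs, Spindlin1 in 766, and the numbers were equal in 259. The median was 1.08 C11orf84 fragments per Spindlin1 fragment (interquartile range 0.917 to 1.31), close to the ratio of the floors of the lists, 1.09. The ratio of single pairs went from 0.444 at chr17:77653571-77654405 (18 Spindlin1 and 8 C11orf84 fragments) to 2.33 at chr17:80347373-80347544 (9 and 21). These 2 pairs were picked after their values were seen.

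Members without a partner mostly lay beside one, as the peak density by which the stretch was selected would give. The 413 unshared Spindlin1 members had a median gap of 312 bp to the nearest C11orf84 interval, and 334 of them (80.9%) lay within 1 kb, against a median of 1196 bp and 46.8% for unshared peaks in the rest. For the 742 unshared C11orf84 members the median gap was 406 bp and 76.3% lay within 1 kb, against 1271 bp and 45.2%. They were narrow, with medians of 197 bp and 219.5 bp, against 318 and 373.5 bp for shared members. The shortest intervals in the lists were 172 and 180 bp.

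Few peaks were isolated from the other protein, as the selection of the stretch by peak density would give. At the ends of chromosomes 9 and 20, 0.202% and 0.985% of Spindlin1 peaks had no C11orf84 peak within 5 kb. For C11orf84 peaks without a Spindlin1 peak that near, these ends had 1.08% and 3.26%. In the stretch, no C11orf84 peak was found within 5 kb of 4 Spindlin1 members (0.122%), against 8.36% of all Spindlin1 peaks. They include chr17:78736028-78736213 (17 fragments, background 2.36 times the floor), chr17:76771044-76771231 (11 fragments) and chr17:78376012-78376207 (9 fragments). For C11orf84 there were 11 such members (0.327%), against 10.9% of all C11orf84 peaks. Of the 11, 5 lay at 76 to 76.1 Mb, the sparse inner border. Their leading one, chr17:76053496-76053684, had a fold of 8.66 at 20 fragments (12.2 to 30.9) and lay 7210 bp from the nearest Spindlin1 interval. The next were chr17:76047366-76047553 and chr17:76046596-76046787, both at 13 fragments.

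At the tip the outermost peaks of the lists overlapped in part. The last Spindlin1 peak was chr17:81151256-81151707 (14 fragments, 7.65 to 23.5) and the last C11orf84 peak chr17:81151520-81151718 (12 fragments, 6.2 to 21.0). The part beyond 81 Mb held 128 Spindlin1 and 120 C11orf84 peaks in 0.152 Mb, with 29.5% and 35.4% of its bases in peaks. Both lists thus stayed dense up to their last peak.

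The background recovered for the members was mostly near the floor, much as in all peaks. It stood at the floor for 1758 Spindlin1 members (53.5%, 51.8 to 55.2), against 48.2% of all peaks. For C11orf84 it did so for 1709 members (50.7%, 49.0 to 52.4), an interval that includes the 49.3% of all. The end of chromosome 9 had 61.2% and 61.6% of its peaks at the floor, and that of chromosome 20 had 50.1% and 49.5%. Raised background, 2 times the floor or more, was found at 226 Spindlin1 members (6.88%, 6.04 to 7.8), against 9.07% of all, and at 271 C11orf84 members (8.05%, 7.15 to 9.02), against 9.19% of all. The ends of chromosomes 9 and 20 had 5.36% and 7.47% raised for Spindlin1, and 5.35% and 8.3% for C11orf84. The median background of the members was 1.00 times the floor in both lists. The densest Mb had more raised background than its neighbours, with 9.39% for Spindlin1 and 12.2% for C11orf84, compared with 4.34% and 6.7% at 80 to 81 Mb, and the part of raised background in its peak numbers was not tested. The window at 79.3 to 79.4 Mb had the most such peaks, 19 of 96 Spindlin1 and 20 of 97 C11orf84 peaks.

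The highest Spindlin1 background was at 1 place, and the highest C11orf84 background was tied between 4. At chr17:79980816-79981011 Spindlin1 had 17 fragments over 5.71 times the floor (fold 2.81), and at chr17:79980829-79981025 C11orf84 had 17 fragments over 4.91 times the floor (fold 2.96). Another of the 4 was chr17:79070902-79071595, where Spindlin1 stood at 3.42 times. All 4 overlapped a Spindlin1 peak. The second highest Spindlin1 background, 4.57 times the floor, was tied between 4 members within 0.1%, of which 2 overlapped a C11orf84 peak. One of those without overlap, chr17:78595245-78595416, lay 7140 bp from the nearest C11orf84 interval. Leaving raised background out of both lists gave shares of 84.3% for Spindlin1 and 76.2% for C11orf84, against 66.2% and 55.0% of all peaks under the same rule.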

How the data were processed

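ChIP-seq peak lists of Spindlin1 and C11orf84 in U2OS cells were used, 1 library each. The submitters' processing notes name Bowtie 1.2.2 and the build hg19. Which program called the peaks, with what threshold and control, is not given in the sources used here. The authors' lists give for each peak a fold (ratio of summit to background), a −log10 p-value, a −log10 q-value and a score, which equalled 10 times that q-value column cut to a whole number in 100% of peaks. Total read numbers are unknown.

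Fragments k at the summit and background λ were recovered from the deposited values with fold = (k + 1)/(λ + 1) and p as the upper Poisson tail beyond k, which met every peak within 0.000174 in −log10 p. The lowest background, the floor, came to 0.949 fragments (Spindlin1) and 1.04 fragments (C11orf84), and peaks within 0.1% of it count as at the floor. Raised means at least 2 times the floor. Peaks were shared when 1 bp overlapped, and 0 members overlapped within a list. Chromosomes 1 to 22 and X served as comparison. Positions count from 1. On data simulated in the range of the lists, 100% of 17043 summit depths and of 10000 overlaps were returned. The work was done in Python 3.11.15 with pandas 2.3.3, NumPy 2.4.6 and SciPy 1.17.1, and plots were drawn by matplotlib 3.10.9.

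Single regions were named by a rule: per list the 5 members of highest fold, the 3 widest, the 3 of highest fold that lay over 5 kb from the other list, the outermost and the 2 of highest background, and the 3 fullest and emptiest 100 kb windows and the longest gap. Members, lists and rules were chosen with earlier results of these data known. Runs, pairs and the crowded windows were added after the data were seen. Peak sequences were not analysed here, as no genome of hg19 was used. Some genes of the band are not reported here.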

Additional observations from a re-analysis of the deposited data

How the results depend on the processing

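Of 20 alternatives, 4 kept their value within its 95% interval, all for summit depth, whose median was 12 for Spindlin1 and 13 for C11orf84 at the floor or without 79 to 80 Mb. The other 16 moved a value. Peak numbers had no interval, and counted as moved when the larger number was over 1.5 times the smaller. A −log10 q of at least 10 left 595 Spindlin1 and 931 C11orf84 peaks, and 79 to 80 Mb alone held 831 and 785, since both take part of the peaks. The Spindlin1 share was 54.3% with 50% of both intervals in common, 61.2% with summits at most 200 bp apart, 49.6% at −log10 q of at least 10, 84.3% without raised background and 85.7% without 79 to 80 Mb, the last chosen after seeing the data. The C11orf84 share was 52.9%, 31.8% and 59.6% for common intervals, −log10 q and summits, 76.2% without raised background and 76.1% without 79 to 80 Mb. Stricter rules count fewer peaks as shared by construction. Raised background was found at 16.6% of Spindlin1 and 18.7% of C11orf84 members at 1.5 times the floor, against 20.8% and 20.9% of all peaks. Peaks at gene starts were not run, as no annotation of hg19 was used. No paired analysis was possible because there is 1 library per antibody. Most members rest on fewer than 20 fragments, and the counting intervals of the proteins overlapped in each of the 10 named regions of highest fold.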
